A study of Mus musculus with 9 samples.

Results

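MHC class I antigen presentation was followed through 10 genes, B2m, H2-K1, H2-D1, Tap1, Tap2, Tapbp, Psmb8, Psmb9, Psmb10 and Nlrc5. They were chosen by symbol, and all 10 were found among the 31167 genes of the deposited expression table. RNA sequencing had been done on primary renal tubular epithelial cells cultured from the kidney of C57BL/6 mice, in 3 groups with 3 libraries each. Sham was the negative control. H/R cells, a culture model of ischemia and reperfusion, were kept for 6 h at 1.0% oxygen without glucose and then for 18 h in complete medium under normal oxygen. EGR1OV cells had been transfected at about 50% confluence with an expression plasmid for Egr1, a zinc-finger transcription factor, which the study names as driven by a CMV promoter. The study describes Sham cells as untreated and gives H/R and the plasmid as separate treatments, and no group used here is labelled as given an empty plasmid, so Egr1 itself and the delivery of a plasmid cannot be told apart. The labels put the same protocol text, with transfection and H/R, on all samples. They therefore do not settle whether EGR1OV cells also went through H/R. Nothing says that replicates came from separate cultures or animals, and p-values therefore measure only the spread between these libraries.

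Nearly every nucleated cell shows fragments of its own proteins on class I molecules, where CD8+ T cells read them. Proteasomes cut the proteins, the Tap transporter moves the peptides into the endoplasmic reticulum, and a loading complex fits them onto a heavy chain paired with beta-2-microglobulin. Interferons and NF-kB signaling are known to raise the transcription of these genes, and Nlrc5 is known as the transactivator that acts at class I promoters. Tubular epithelial cells carry class I and can raise it during inflammation and transplant rejection.

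Levels are given as FPKM, a read density per exon length and library size that can be compared between genes. The number of reads recovered from the values ran from 16183617 to 18384022 per library. Changes are differences of mean log2(FPKM + 1), which understate the change of genes with low values, and folds are ratios of mean FPKM. Calls needed a limma adjusted p under 0.05 together with 1.3-fold or more on that scale for EGR1OV, and 1.2-fold or more for H/R against Sham. Egr1 averaged 6.40 ± 0.443 FPKM in the Sham libraries, 7.88 ± 0.599 after H/R and 42.6 ± 2.84 with the plasmid (SD, n = 3 each), so the transfected libraries held the transcript their label names. Of the tubule markers, Krt8, Krt18, Epcam and Pax8 were well expressed, but Umod was listed at 0 in all 9 libraries and neither Slc34a1 nor Slc12a3 exceeded 0.0362 FPKM. Lrp2, an endocytic receptor of the proximal tubule, was present at 3.51 to 3.67 FPKM in Sham, 3.38 to 3.50 in H/R and 1.19 to 1.28 in EGR1OV.

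All 10 genes were called higher in EGR1OV against Sham. No EGR1OV library of any of them overlapped a Sham library, and the share of all genes without such overlap is not given here. Among the 13985 genes tested, 9.87% were called higher and 6.51% lower in this comparison. The median change of the 10 genes was 3.09 on the log2 scale, against 0.02 for all genes tested. Psmb9 and Nlrc5 passed the filter on low values only through their EGR1OV libraries, and 8 genes passed on their Sham and H/R values too. All 8 of these were called higher, with a median change of 3.09. In H/R against Sham, 1 gene, Tap1, was called lower and none was called higher, where 2.65% of all genes were called lower and 1.6% higher. The plot of FPKM in each library shows these levels together.

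**Figure D1:**
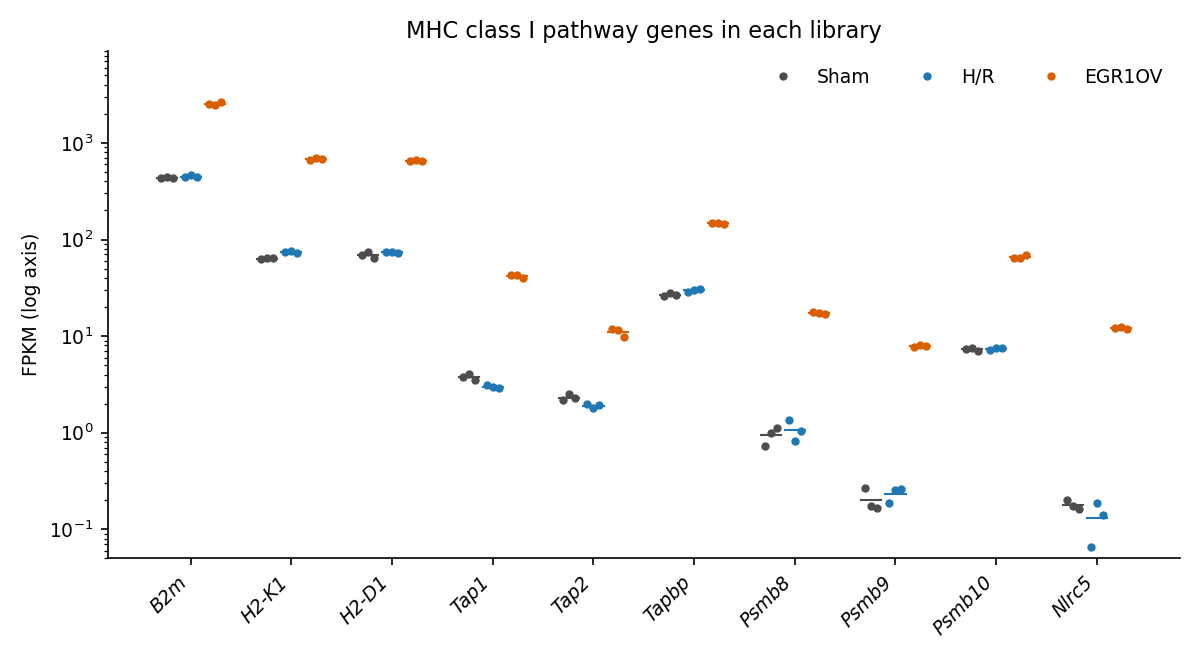
FPKM of the 10 MHC class I pathway genes in each library, on a log axis, for Sham, H/R and EGR1OV (points are libraries, lines are group means, n = 3). EGR1OV points lie above the Sham and H/R points for each gene, while Sham and H/R points lie close together.

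The surface molecule is built from a heavy chain and B2m, the invariant light chain without which the heavy chain does not reach the surface. B2m (ENSMUSG00000060802, chr2:122147686-122153083, GRCm38) was at 429.6, 443 and 434 FPKM in Sham, 442, 460.1 and 442 FPKM in H/R, and 2551, 2451 and 2629 FPKM in EGR1OV. Sham and H/R overlapped, and every EGR1OV library stood far above both. B2m rose 5.84-fold in EGR1OV against Sham, by 2.54 on the log2 scale (SE 0.0311, limma adjusted p = 2.54e-11). By mean FPKM it ranked 60 of all genes in Sham and in H/R, and 4 in EGR1OV. In H/R its difference from Sham was 0.04 on the log2 scale, with a 95% interval of -0.03 to 0.11 (limma adjusted p = 0.431).

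H2-K1 and H2-D1 encode the classical heavy chains of the C57BL/6 strain, which bind peptide and the T cell receptor. H2-K1 (ENSMUSG00000061232, chr17:33996017-34000333) was at 62.2, 64.1 and 63.6 FPKM in Sham, 74.1, 75.8 and 71.8 FPKM in H/R, and 672, 702 and 685 FPKM in EGR1OV. Here all 3 groups were apart, with H/R slightly above Sham and EGR1OV high above both. It rose 10.8-fold in EGR1OV against Sham, by 3.42 on the log2 scale (SE 0.0277, limma adjusted p = 4.31e-12). In H/R it was 1.17 times the Sham mean, a difference of 0.22 on the log2 scale with a limma adjusted p of 0.0023, which passed the p threshold but lay under the 1.2-fold threshold.

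H2-D1 (ENSMUSG00000073411, chr17:35262730-35267499) was at 68.8, 73.6 and 63.9 FPKM in Sham, 74.6, 74.3 and 72.8 FPKM in H/R, and 644, 661 and 653 FPKM in EGR1OV. Sham and H/R overlapped, and EGR1OV was apart from both. It rose 9.49-fold against Sham, by 3.23 on the log2 scale (SE 0.0439, limma adjusted p = 3.88e-11). The H/R difference from Sham was 0.11 on the log2 scale, with an interval of 0.01 to 0.20 and a limma adjusted p of 0.155. Both heavy chains climbed in the ranking of all genes, from 705 to 32 for H2-K1 and from 638 to 34 for H2-D1, between Sham and EGR1OV. Heavy-chain genes resemble each other in sequence, and 0.957% of the 100-base windows of H2-K1 transcripts and 3.59% of those of H2-D1 were found identical in another gene, while B2m had none. How reads with several matches were counted is not given in the sources used here.

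The promoters of these 3 genes are shown because the genes rose together and because their windows share matches to the interferon and NF-kB motifs. Each window holds 250 bases before and 50 from the transcription start in RefSeq (GRCm38.p6), 5' to 3' along the gene, at chr2:122147437-122147736 (plus strand) for B2m, chr17:34000298-34000597 (minus strand) for H2-K1, and chr17:35262844-35263143 (plus strand) for H2-D1. Capitals mark matches to the IRF core AANNGAAA, which is read as TTTCNNTT on the other strand, and to the NF-kB motif, and no IRF core match overlapped an NF-kB match in them.
B2m: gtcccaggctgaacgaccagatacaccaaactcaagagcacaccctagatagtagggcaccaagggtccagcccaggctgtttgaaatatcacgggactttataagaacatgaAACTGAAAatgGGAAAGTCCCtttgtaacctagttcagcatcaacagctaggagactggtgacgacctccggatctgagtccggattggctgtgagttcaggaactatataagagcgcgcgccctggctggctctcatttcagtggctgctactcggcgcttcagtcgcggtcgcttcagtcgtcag
H2-K1: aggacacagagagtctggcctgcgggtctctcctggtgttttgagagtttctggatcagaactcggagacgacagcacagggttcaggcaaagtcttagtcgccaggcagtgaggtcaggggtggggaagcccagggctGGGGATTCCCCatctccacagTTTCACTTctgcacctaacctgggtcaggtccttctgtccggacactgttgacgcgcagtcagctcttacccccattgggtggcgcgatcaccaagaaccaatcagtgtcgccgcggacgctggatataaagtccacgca
H2-D1: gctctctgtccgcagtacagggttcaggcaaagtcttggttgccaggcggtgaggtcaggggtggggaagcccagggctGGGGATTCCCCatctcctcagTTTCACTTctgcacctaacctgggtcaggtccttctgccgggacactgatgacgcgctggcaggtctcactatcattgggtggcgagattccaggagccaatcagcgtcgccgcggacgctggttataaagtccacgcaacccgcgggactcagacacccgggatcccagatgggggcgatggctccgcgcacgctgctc
With the start counted as 0, the IRF core stood at -137 to -130 in B2m, -90 to -83 in H2-K1 and -150 to -143 in H2-D1. The NF-kB match lay at -126 to -117 in B2m, and overlapping matches ran from -111 to -101 in H2-K1 and from -171 to -161 in H2-D1. The H2-K1 and H2-D1 windows share an unbroken run of 47 bases around the NF-kB match. RefSeq lists another H2-K1 start a few bases away, with the same matches.

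Windows were found for 8 of the 10 genes, with none for Tap2 and Nlrc5. They follow RefSeq starts, which can differ from the deposited gene positions. The windows of H2-D1, Tapbp, Psmb8 and Psmb9 lie wholly inside the genes as positioned here. The IRF core was present in 3 of the 8, B2m, H2-K1 and H2-D1, and in 23.9% of all 32851 promoter windows, and NF-kB matches were in the same 3 and in 8.46% of all windows. CCAAT, searched on both strands like the others, was found in 6 of the 8 and in 37.4% of all windows. TGACG, the core of the site bound by CREB and ATF proteins, was found in 5 of the 8 and in 20.8% of all windows. The Tap1 and Psmb9 windows share 275 bases, and their CCAAT and TGACG matches are the same bases. Each of these matches is therefore counted for both genes. Tapbp held CCAAT matches only, and Psmb10 held no match to any motif searched. The EGR motif GCGNGGGCG was in none of the 8 windows and in 5.55% of all windows, which says only that these letters are absent from these windows.

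**Figure D2:**
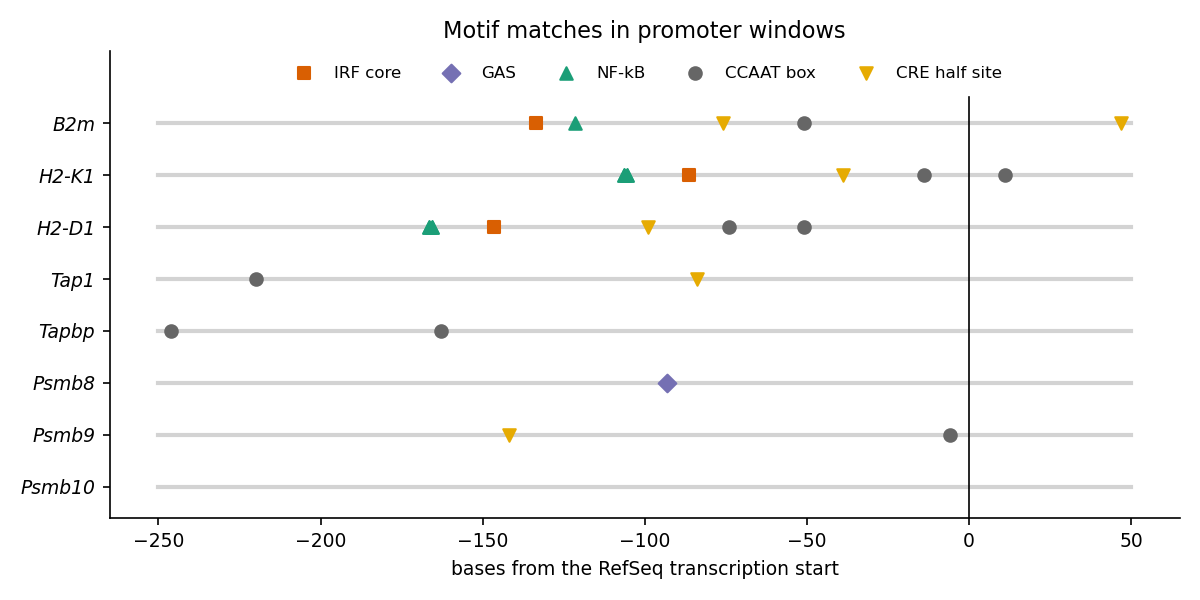
Positions of motif matches in the promoter windows of the 8 genes with a RefSeq window, in bases from the transcription start (symbols are motif matches, grey lines are windows of 300 bases). B2m, H2-K1 and H2-D1 hold IRF core and NF-kB matches, Psmb8 holds the GAS match, and Psmb10 holds none.

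Peptides reach the endoplasmic reticulum through a transporter made of Tap1 and Tap2. Tap1 (ENSMUSG00000037321, chr17:34187553-34197225) was at 3.80, 4.07 and 3.55 FPKM in Sham, 3.13, 2.95 and 2.93 FPKM in H/R, and 43.1, 42.6 and 40.2 FPKM in EGR1OV. Each H/R library lay below each Sham library, and the EGR1OV libraries stood far above both. Tap1 rose 11.03-fold in EGR1OV against Sham, by 3.16 on the log2 scale (SE 0.0482, limma adjusted p = 7.51e-11). It fell in H/R to 0.789 times the Sham mean, by 0.26 on the log2 scale (SE 0.0482, limma adjusted p = 0.0108), which is at the 1.2-fold threshold itself. Leaving out Sham replicate 2, H/R replicate 2 or H/R replicate 3 put this change under the threshold, at -0.22, -0.25 and -0.25 on the log2 scale, with limma adjusted p between 0.0335 and 0.039.

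Tap2 (ENSMUSG00000024339, chr17:34203527-34216321) was at 2.16, 2.503 and 2.28 FPKM in Sham, 1.98, 1.80 and 1.95 FPKM in H/R, and 11.7, 11.6 and 9.85 FPKM in EGR1OV. The H/R libraries again lay under all Sham libraries, but the difference of -0.19 on the log2 scale had a limma adjusted p of 0.123. Tap2 rose 4.78-fold in EGR1OV against Sham, by 1.86 on the log2 scale (SE 0.0703, limma adjusted p = 3.74e-08). The ratio of Tap1 to Tap2 FPKM averaged 1.65 for Sham, 1.57 for H/R and 3.81 for EGR1OV, and was higher in each EGR1OV library than in any other (exact permutation p = 0.1 for EGR1OV against Sham, the smallest that 3 against 3 can give).

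Tapbp encodes tapasin, which bridges the transporter and the empty heavy chain in the loading complex. Tapbp (ENSMUSG00000024308, chr17:33915899-33929288) was at 26.1, 27.9 and 26.7 FPKM in Sham, 28.5, 29.7 and 30.8 FPKM in H/R, and 148, 149.8 and 143 FPKM in EGR1OV. It rose 5.46-fold in EGR1OV against Sham, by 2.41 on the log2 scale (SE 0.0367, limma adjusted p = 7.51e-11). All H/R libraries stood just above the Sham libraries, at 1.10 times their mean. That difference of 0.14 on the log2 scale had a limma adjusted p of 0.045 and lay under the fold threshold. Of the transcript windows of Tapbp, 14.8% were shared with an overlapping predicted gene.

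Psmb8, Psmb9 and Psmb10 encode the inducible catalytic subunits that replace Psmb5, Psmb6 and Psmb7 in the immunoproteasome and favor peptides with ends that suit class I. Psmb8 (ENSMUSG00000024338, chr17:34197721-34201454) was at 0.734, 0.985 and 1.11 FPKM in Sham, 1.36, 0.815 and 1.05 FPKM in H/R, and 17.8, 17.5 and 16.9 FPKM in EGR1OV. It rose 18.4-fold in EGR1OV against Sham, by 3.25 on the log2 scale (SE 0.0997, limma adjusted p = 7.96e-09), and Sham and H/R overlapped. Psmb10 (ENSMUSG00000031897, chr8:105935735-105938444), the most abundant of the inducible subunits in these cells, was at 7.31, 7.57 and 7.03 FPKM in Sham, 7.21, 7.56 and 7.47 FPKM in H/R, and 64.7, 64.3 and 68.9 FPKM in EGR1OV. It rose 9.03-fold in EGR1OV against Sham, by 3.01 on the log2 scale (SE 0.0384, limma adjusted p = 3.47e-11), and again Sham and H/R overlapped.

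Psmb9 (ENSMUSG00000096727, chr17:34181988-34187764) was hardly transcribed without the plasmid. It was at 0.266, 0.172 and 0.166 FPKM in Sham and 0.186, 0.253 and 0.262 FPKM in H/R, values that rest on 10 to 17 reads, and at 7.65, 8.13 and 7.96 FPKM in EGR1OV, on 465 to 490 reads. It rose 39.3-fold in EGR1OV against Sham, by 2.89 on the log2 scale (SE 0.0628, limma adjusted p = 6.17e-10). Psmb9 passed the filter on low values only through EGR1OV. In H/R, the intervals of the difference from Sham on the log2 scale were -0.13 to 0.32 for Psmb8, -0.10 to 0.18 for Psmb9 and -0.07 to 0.11 for Psmb10, with limma adjusted p of 0.600, 0.741 and 0.795.

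Psmb9, Tap1, Psmb8 and Tap2 lie side by side within 34.3 kb. Tap1 and Psmb9 face away from each other, and their starts are 226 bases apart in RefSeq, so that 275 bases of their promoter windows are the same DNA. In the deposited gene positions, which place these starts differently from RefSeq, the genes overlap by 212 bases on opposite strands. Whether reads were counted by strand is not given in the sources used here. By the same positions, the end of Tap1 and the start of Psmb8 are 495 bases apart. The RefSeq start used for the Psmb8 window lies farther along, inside the gene. The shared window is shown along Tap1 (chr17:34187306-34187605, plus strand) beside that of Psmb8 (chr17:34197945-34198244, plus strand), whose capitals mark TTCNNNGAA, the GAS motif, an element of genes that respond to interferon gamma.
Tap1: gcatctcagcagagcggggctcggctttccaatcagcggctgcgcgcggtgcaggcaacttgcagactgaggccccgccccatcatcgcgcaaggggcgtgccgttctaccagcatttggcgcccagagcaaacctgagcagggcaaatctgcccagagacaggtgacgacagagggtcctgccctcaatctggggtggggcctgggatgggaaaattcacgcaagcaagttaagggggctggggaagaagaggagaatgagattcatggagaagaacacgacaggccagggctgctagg
Psmb8: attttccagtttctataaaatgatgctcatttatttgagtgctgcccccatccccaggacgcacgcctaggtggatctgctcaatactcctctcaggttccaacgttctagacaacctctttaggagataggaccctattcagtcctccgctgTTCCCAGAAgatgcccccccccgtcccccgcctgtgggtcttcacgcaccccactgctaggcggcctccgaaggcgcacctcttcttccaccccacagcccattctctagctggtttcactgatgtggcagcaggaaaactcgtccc
The GAS match of Psmb8 stood at -97 to -89, and 8.30% of all promoter windows held such a match. The Tap1 window held no IRF core, GAS or NF-kB match, and the same was true of the window read from the Psmb9 start.

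In EGR1OV against Sham, none of the constitutive catalytic subunits was called beside its inducible counterpart. Psmb5 was at 59.8 ± 2.16 FPKM in Sham and 61.1 ± 2.57 in EGR1OV, and Psmb7 was at 24.2 ± 0.565 and 27.3 ± 0.505 (SD, n = 3 each). Psmb6 went from 57.3 ± 0.838 to 72.4 ± 0.754 FPKM, by 0.33 on the log2 scale, which passed the p threshold but not 1.3-fold. Against H/R, where it averaged 54.5 FPKM, Psmb6 was called higher in EGR1OV, by 0.40 on the log2 scale (limma adjusted p = 4.68e-06), but it fell short of 1.3-fold with median-ratio and with quantile scaling (0.34 in each). The summed FPKM of Psmb8, Psmb9 and Psmb10, divided by that of Psmb5, Psmb6 and Psmb7, averaged 0.0598 ± 0.00266 for Sham, 0.0677 ± 0.00295 for H/R and 0.568 ± 0.0146 for EGR1OV (SD, n = 3 libraries each). No groups overlapped in this ratio. It was 9.49 times higher in EGR1OV than in Sham and 1.13 times higher in H/R than in Sham (exact two-sided permutation p = 0.1 in each, also 0.1 when adjusted over the 6 ratio comparisons, and the smallest that this design allows). The H/R ratio also depends on its denominator. Psmb5 was at 57.0, 49.7 and 50.2 FPKM in H/R, below all Sham libraries, and Psmb7 at 23.6, 22.6 and 20.3 FPKM. No inducible or constitutive catalytic subunit was called in H/R against Sham.

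Pair by pair, Psmb10 went from 0.302 times Psmb7 in Sham to 2.42 times in EGR1OV and so exceeded its counterpart there. Psmb8 went from 0.0158 to 0.285 times Psmb5, and Psmb9 from 0.00351 to 0.109 times Psmb6, and both stayed below their counterparts in all libraries. In H/R, these ratios were 0.336, 0.0204 and 0.00428, each overlapping with Sham.

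**Figure D3:**
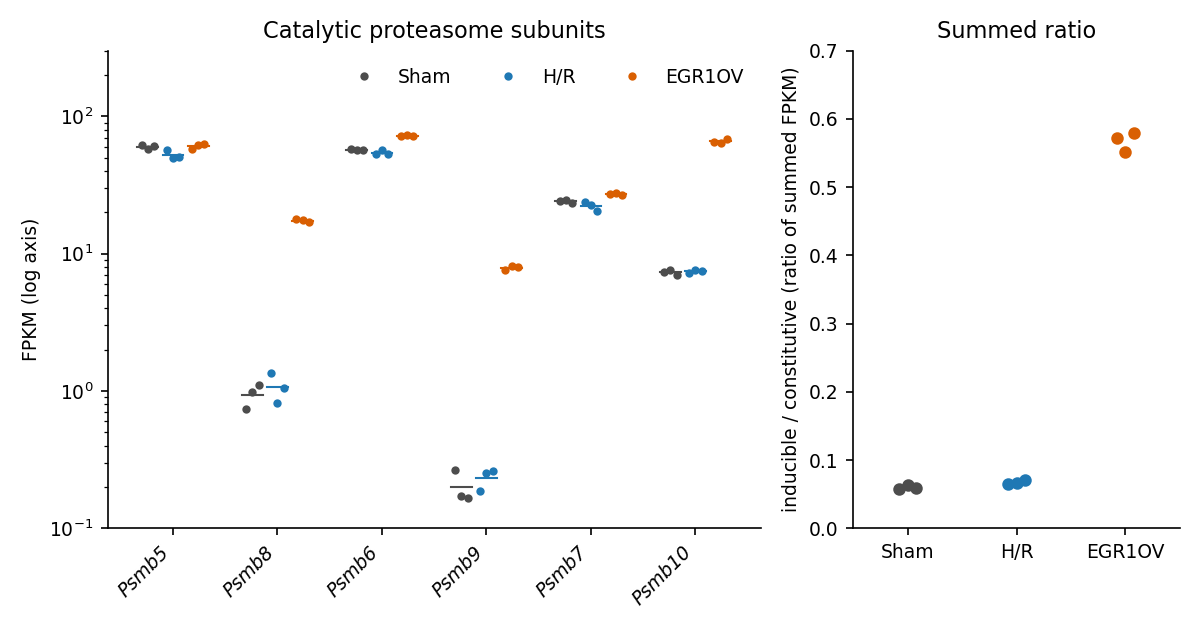
Left, FPKM of the constitutive subunits Psmb5, Psmb6 and Psmb7, each beside its inducible counterpart Psmb8, Psmb9 or Psmb10, in each library on a log axis (lines are group means, n = 3). Right, the ratio of summed inducible to summed constitutive FPKM per library, which lies between 0.551 and 0.579 in EGR1OV and between 0.0578 and 0.0710 in the Sham and H/R libraries.

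Nlrc5 (ENSMUSG00000074151, chr8:94434356-94527272), the transactivator of class I genes, was the lowest of the 10 genes in Sham and H/R by mean FPKM. It was at 0.2005, 0.176 and 0.164 FPKM in Sham and 0.0655, 0.186 and 0.139 FPKM in H/R, on 9 to 29 reads, and at 12.0, 12.4 and 11.7 FPKM in EGR1OV, on 1676 to 1718 reads. Sham and H/R overlapped, and EGR1OV lay far above both. It rose 66.9-fold in EGR1OV against Sham, by 3.47 on the log2 scale (SE 0.0601, limma adjusted p = 1.48e-10). Nlrc5 passed the filter on low values only through EGR1OV. The low H/R library, replicate 1, gave that group a coefficient of variation of 46.6%, and the H/R difference of -0.06 on the log2 scale had an interval of -0.20 to 0.07 (limma adjusted p = 0.537).

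**Figure D4:**
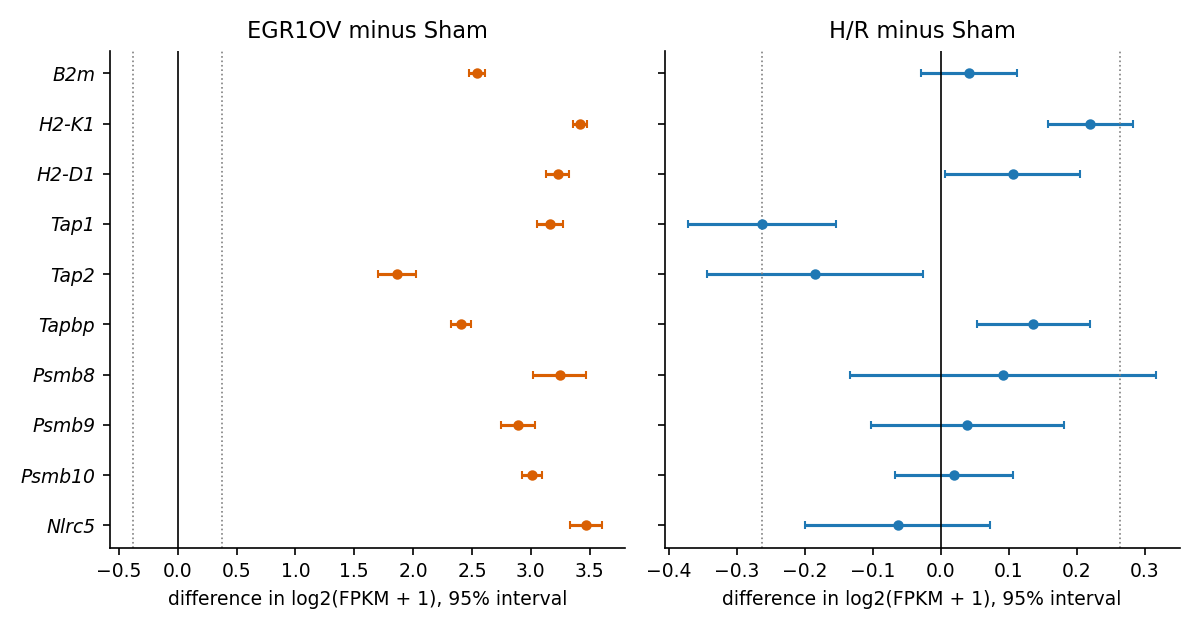
Difference in mean log2(FPKM + 1) with 95% intervals from the limma fit, EGR1OV minus Sham on the left and H/R minus Sham on the right, on different scales (dotted lines mark the fold thresholds). All EGR1OV differences lie between 1.86 and 3.47, while the H/R differences lie between -0.26 for Tap1 and 0.22 for H2-K1.

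In Sham, B2m was the most abundant of the 10 genes at 435 FPKM, followed by H2-D1, H2-K1, Tapbp, Psmb10, Tap1, Tap2, Psmb8, Psmb9 and Nlrc5. H2-D1 and H2-K1 overlapped in that order, as did Psmb9 and Nlrc5, and all other neighbors were apart. In EGR1OV the order was B2m, H2-K1, H2-D1, Tapbp, Psmb10, Tap1, Psmb8, Nlrc5, Tap2 and Psmb9. The lowest Nlrc5 library there, at 11.727 FPKM, lay barely above the highest Tap2 library, at 11.721 FPKM. The other neighbors were further apart. Psmb8 and Nlrc5 had thus passed Tap2, which had the lowest fold of the 10 genes.

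The FPKM of the 10 genes summed to 601 to 624 for Sham, 631 to 653 for H/R and 4120 to 4265 for EGR1OV, which is 0.201 to 0.225%, 0.217 to 0.228% and 1.49 to 1.51% of all FPKM. The share of B2m in this sum ran from 71.0 to 72.0% for Sham, 69.8 to 70.4% for H/R and 59.5 to 61.6% for EGR1OV. The ratio of summed heavy chain to B2m averaged 0.303 ± 0.00862 for Sham, 0.330 ± 0.00569 for H/R and 0.527 ± 0.0254 for EGR1OV (SD, n = 3 libraries each). No groups overlapped, and the ratio was 1.74 times higher in EGR1OV and 1.09 times higher in H/R than in Sham (exact two-sided permutation p = 0.1 in each, the smallest possible). Heavy chain transcripts therefore stood closer to B2m in EGR1OV, though B2m still exceeded their sum in each library.

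Against H/R, all 10 genes were also higher in EGR1OV, in a comparison that shares the EGR1OV libraries and where 11.9% of all genes were called higher and 6.94% lower. The log2 differences ran from 2.05 for Tap2 (5.79-fold, limma adjusted p = 1.79e-08) to 3.53 for Nlrc5 (92.5-fold, limma adjusted p = 1.3e-10). Nlrc5 and Psmb9 passed the filter only through EGR1OV. Without them, 8 of 8 genes were called higher, with a median of 3.06. Tap1 differed by 3.42 on the log2 scale, 14.0-fold. The ratio of inducible to constitutive subunits was 8.39 times higher than in H/R, and that of heavy chain to B2m 1.60 times higher (exact permutation p = 0.1 for both, the smallest possible).

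For H/R against Sham the fold threshold decided more than the p. By adjusted p alone (under 0.05 with limma), 3 of the 10 genes differed, Tap1 lower and H2-K1 and Tapbp higher, where 11.7% of all genes did. The groups were apart for these 3 and for Tap2, and overlapped for the other 6. How many of all genes had groups apart is not given here, so this count is only a description. The median H/R difference of the 10 genes was 0.04 on the log2 scale, against -0.03 for all genes tested.

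Replicates lay close together for the abundant members. The coefficient of variation of the 10 genes was 1.27 to 9.42% in EGR1OV with a median of 2.87%, 1.54 to 27.9% in Sham and 1.301 to 46.6% in H/R. The widest values belonged to Psmb9 in Sham and Nlrc5 in H/R, which rest on few reads.

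Members were also set beside each other by the root mean square difference of their log2 profiles over the 9 libraries, each taken relative to its Sham mean. The nearest pairs were Psmb9 and Psmb10 at 0.0849 and B2m and Tapbp at 0.109, and H2-D1 was nearest to Psmb8 at 0.131. All profiles here are on the log2(FPKM + 1) scale, where a rise that starts near 0 is compressed. Mean FPKM in Sham and EGR1OV was 0.201 and 7.91 for Psmb9, but 7.31 and 66.0 for Psmb10. It was 0.942 and 17.4 for Psmb8, but 68.8 and 652 for H2-D1. Nearness in these profiles therefore does not mean equal folds. Tap2 stood farthest from any other member, at 0.370 from Tapbp. Among other genes that averaged 5 FPKM or more, those with the profile most like the median of the 10 were Uba7 at 0.0775, which encodes the activating enzyme for Isg15, Parp12 at 0.0827, Ifih1 at 0.0830, a sensor of double-stranded RNA, Gm43197 at 0.0845 and Irgm1 at 0.0850, an interferon-inducible GTPase. Uba7 averaged 1.01 FPKM for Sham, 0.963 for H/R and 15.3 for EGR1OV. Like Uba7, Ifih1 and Gm43197 averaged under 5 FPKM in Sham and in H/R, and reached that mean only through EGR1OV. These genes were picked by the same values that are compared here, so their likeness is not a separate result.

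The pathway around the 10 genes was read from 5 lists that hold 64 other genes, of which 54 were tested. In EGR1OV against Sham, 21 were called higher and none lower, where 9.87% of all genes were called higher and 6.51% lower. The median change of the 54 was 0.16 on the log2 scale. Without the 3 genes that passed the filter only through EGR1OV, 18 of 51 were called higher. In H/R against Sham, 0 of the 54 were called by limma with the fold threshold, while 20 had an unadjusted p under 0.05 and 2, Nfkb1 (higher) and Irf9 (lower), were called by voom on the recovered reads. Of all genes, limma called 1.6% higher and 2.65% lower there. In EGR1OV against H/R, 19 were called higher and 1, H2-T24, lower, where 11.9% of all genes were called higher and 6.94% lower. Genes named here only for such a count were chosen after their values were seen. H2-T24 was at 3.48, 3.69 and 5.01 FPKM in H/R, and its call was lost without H/R replicate 3, EGR1OV replicate 2 or EGR1OV replicate 3, where its change was -0.26, -0.37 and -0.37 on the log2 scale instead of -0.39. Calls in EGR1OV were spread unevenly over the lists.

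Nonclassical and class I-like heavy chains had the most calls, with 10 of 13 higher in EGR1OV against Sham, where 9.87% of all genes were. Without H2-Q2, H2-Q6 and H2-Q7, which passed the filter only through EGR1OV, 7 of 10 were called higher. H2-Q6, of the Qa-2 family, went from 0.183 to 77.0 FPKM on average (6.05 on the log2 scale), on 3 to 10 reads in the Sham libraries. H2-Q4 went from 3.27 to 88.8 FPKM, 27.2-fold, and H2-Q7 from 0.0843 to 13.0 FPKM. These genes share transcript windows with close relatives, 13.0% for H2-Q6, 14.1% for H2-Q4 and 12.0% for H2-Q7, and their separate levels are uncertain. H2-T24 at 3.27 and 2.83 FPKM, Mr1, which presents vitamin B metabolites, at 4.51 and 5.11 FPKM, and Fcgrt, the neonatal Fc receptor, at 7.13 and 7.001 FPKM in Sham and EGR1OV were the 3 of the 13 that were not called, and are named for that after their values were seen.

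**Figure D5:**
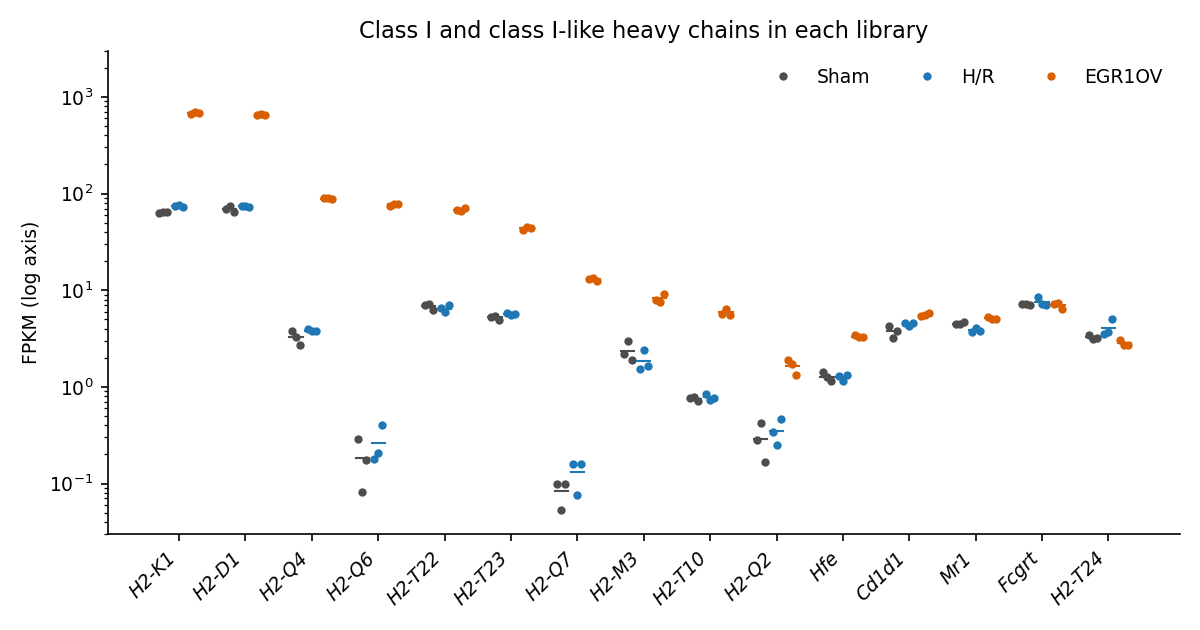
FPKM of classical, nonclassical and class I-like heavy chains in each library on a log axis (points are libraries, lines are group means, n = 3). H2-K1 and H2-D1 lie highest in all 3 groups, and H2-Q6 and H2-Q7 go from below 1 FPKM in Sham and H/R to 77.0 and 13.0 FPKM on average in EGR1OV. Mr1, Fcgrt and H2-T24 show no rise of that size, and H2-T24 runs from 2.70 FPKM in EGR1OV to 5.01 FPKM in H/R.

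In peptide loading and trimming, 2 of 11 genes were called, both higher in EGR1OV against Sham, where 9.87% of all genes were called higher. Erap1, the aminopeptidase that trims peptides in the endoplasmic reticulum, rose from 6.54 to 21.1 FPKM, by 1.55 on the log2 scale (limma adjusted p = 1.03e-08). Tapbpl, a tapasin-related peptide editor, rose from 6.94 to 20.7 FPKM, by 1.45 on the log2 scale (limma adjusted p = 1.37e-08). The general chaperones of the same complex were not called, with Calr at 294 and 284 FPKM, Canx at 166 and 165 FPKM and Pdia3 at 264 and 303 FPKM in Sham and EGR1OV, named here after their values were seen. None of the 7 cytosolic peptidases was called, although Lnpep (lower) and Thop1 (higher) had an adjusted p under 0.05 with limma, and Npepps an unadjusted one.

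Of the 8 constitutive proteasome and PA28 genes, 2 were called in EGR1OV against Sham, both higher, where 9.87% of all genes were called higher. Psme1 and Psme2, the subunits of the PA28 cap that opens the proteasome, rose from 18.9 to 64.9 and from 21.9 to 61.5 FPKM, by 1.73 and 1.45 on the log2 scale (limma adjusted p = 4.92e-10 and 3.08e-09). Of the 15 tested genes listed as regulators of class I transcription, 7 were called higher, where 9.87% of all genes were. Among these 7, the calls of Irf2 and Rfx5 were lost with median-ratio and with quantile scaling, and in some fits without a library. Stat2 rose from 3.23 to 70.2 FPKM, Irf9 from 4.27 to 22.6 FPKM and Irf1 from 6.09 to 21.2 FPKM, by 4.08, 2.17 and 1.65 on the log2 scale. Stat2 and Irf9 belong to a complex that carries interferon signals to promoters, and Irf1 is an interferon-induced activator of class I genes.

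Other cell types could be present in a primary culture, and class I is carried by leukocytes too. Of the leukocyte markers, 8 of 8 tested were called lower in EGR1OV against Sham, where 6.51% of all genes were. The summed level over 11 leukocyte genes was 142 to 147 FPKM for Sham, 118 to 126 for H/R and 22.4 to 27.1 for EGR1OV. Lyz2, a myeloid lysozyme, fell from 57.7 to 5.46 FPKM, C1qa from 31.1 to 4.50 FPKM and C1qc from 14.0 to 1.91 FPKM. Ptprc, the common leukocyte antigen, was at 0.533 FPKM or less in all libraries. In such bulk samples, fewer cells of a type and less RNA per cell cannot be told apart. After H/R, Adgre1 and Lyz2 were the 2 of 8 called lower, at 1.87 and 47.1 FPKM, where 2.65% of all genes were called lower. The Adgre1 call was lost without any one of Sham replicates 1, 2 and 3 and H/R replicates 1 and 3 (limma adjusted p of 0.0711 to 0.108), and the Lyz2 call without Sham replicate 2 or 3 or H/R replicate 2 (0.0603 to 0.0638). Adgre1 also lost its call with quantile normalization, a pseudocount of 0.1, no filter or a replicate block. Lyz2 also lost its call with median-ratio scaling or no filter.

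Class II genes, which professional antigen-presenting cells use to show peptides to CD4+ T cells, had no call in the direction of class I. Of 6 tested, 4 were called lower in EGR1OV against Sham, where 6.51% of all genes were. After H/R, limma called 0 of the 6, and 1, H2-Ab1, had an unadjusted p under 0.05. In EGR1OV, H2-Eb1 fell from 3.28 to 0.765 FPKM, H2-Aa from 1.89 to 0.268 FPKM H2-Ab1 from 4.42 to 2.32 FPKM and Cd74 from 12.3 to 8.17 FPKM, and the summed level of the 8 class II genes spanned 27.3 to 32.2 FPKM for Sham, 30.3 to 32.0 for H/R and 17.8 to 19.4 for EGR1OV. H2-Oa was listed at 0 throughout. Of 8 tubule markers tested in EGR1OV against Sham, 1 was called higher and 3 lower, and 4 were not called. Krt8, Krt18 and Lrp2 fell from 1014 to 618, from 685 to 412 and from 3.60 to 1.22 FPKM, while Epcam, an adhesion protein of epithelia, rose from 76.2 to 100.4 FPKM, a call that was lost with median-ratio or quantile scaling and without EGR1OV replicate 2 (0.36, 0.34 and 0.36 on the log2 scale). The summed level of the tubule list, most of it Krt8 and Krt18, was 1893 to 1931 FPKM for Sham, 1749 to 1828 for H/R and 1232 to 1336 for EGR1OV. Endothelial markers summed to 9.21 to 9.67, 9.41 to 9.77 and 6.52 to 7.18 FPKM, and fibroblast markers to 24.8 to 26.1, 28.5 to 30.1 and 27.1 to 31.4 FPKM in the same order. The part of these shifts in the levels of the 10 genes was not tested.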

How the data were processed

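RNA was sequenced from 9 libraries, 3 each of Sham, H/R and EGR1OV, and their groups and replicate numbers come from the titles. The authors deposited a table of FPKM with a column per library, without pooling, and its depth is not stated. The submitters' processing notes name HISAT2 2.1.0, Bowtie2 2.2.3, TopHat2 and the build mm9 without their roles, but 99.8% of gene identifiers were found in GENCODE M21 and 94.6% of gene positions were equal to its GRCm38 positions, so coordinates are given as GRCm38. How reads were counted, by strand or between similar genes, is not given in the sources used here. Symbols turned into dates in 26 places were restored by identifier.

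Low FPKM values were multiples of a fixed step. With GENCODE M21 exon lengths the step gave 16183617 to 18384022 reads per library, and 94.0% of values of 1 to 1000 reads came out whole within 0.02 reads. Intervals cover the spread between libraries only.

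Genes that averaged 0.5 FPKM or more were tested as log2(FPKM + 1) with limma 3.58.1 in R 4.3.3 (lmFit, and eBayes with trend, all 9 libraries in the fit, two-sided, Benjamini-Hochberg over 13985 genes). The fold thresholds against Sham are those of the study, and the 1.3-fold threshold of EGR1OV against H/R was set here. Ratios were compared by exact permutation tests with scipy 1.17.1, under Python 3.11.15 with numpy 2.4.6, pandas 2.3.3 and matplotlib 3.10.9. The code was tested on simulated data. Promoter windows and their motif matches were read from RefSeq GRCm38.p6. Replicate pairs all differed by more than sampling noise.

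The 10 genes and the other lists were chosen with earlier results of these data known. Besides the 10 genes, Psmb5, Psmb6, Psmb7 and Egr1, the text names from each list up to 3 called genes with the largest change in EGR1OV against Sham and up to 2 in H/R against Sham, at a mean of 1 FPKM or more in the higher group, and the 5 genes with the most similar profile. Other names were chosen after their values were seen. H2-M10.1, H2-M11, Aqp2 and Cd3e of these lists were not analysed here, and a further gene is not reported here. Results were recomputed with median-ratio or quantile scaling, a pseudocount of 0.1, no filter or a filter at 5 FPKM, a replicate block, no trend in eBayes, pairwise fits, no fold threshold, voom on the recovered reads, and without each library in turn.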

Additional observations from a re-analysis of the deposited data

How the results depend on the processing

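Every one of the 10 genes kept its call as higher in EGR1OV, against Sham and against H/R, under all 19 alternatives that tested it. Psmb9 and Nlrc5 were not tested at a mean of at least 5 FPKM. In H/R against Sham, the 1 call (Tap1) went to 0 with median-ratio scaling and with quantile normalization, 3 genes were called with no fold threshold, and leaving out a library gave 0 to 1. The Tap1 change lay between -0.34 and -0.22 on the log2 scale, with limma adjusted p of 0.00479 to 0.039 over all alternatives. H2-K1 kept an adjusted p under 0.05 in all 19 (8.05e-05 to 0.0118), Tapbp in 8 and H2-D1 in 1, each below the fold threshold where there was one.

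Of the other pathway genes, those called in EGR1OV against Sham went from 21 to 13 at a mean of at least 5 FPKM, where fewer genes are tested, and to 35 with no fold threshold. Against H/R they went from 20 to 13 and 43 in the same settings. In H/R against Sham they went from 0 to 1 with median-ratio scaling, quantile normalization, a pseudocount of 0.1 or a filter at 5 FPKM, to 4 with no fold threshold, to 2 with voom, and to 0 to 2 when a library was left out (2 without Sham replicate 1, H2-Q4 and Cd1d1, both higher). Over all genes, calls in EGR1OV against Sham went from 2291 to 1315 at 5 FPKM and 6417 with no fold threshold. Those in H/R against Sham went from 594 to 372, 1635 and, with voom, 1001, and those in EGR1OV against H/R from 2641 to 1520 and 7135.

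Scaling moved the split of calls over all genes. In EGR1OV against Sham it was 1381 higher and 910 lower, 1221 and 1034 with median-ratio scaling, and 1059 and 1247 with quantile normalization. In H/R against Sham it was 224 and 370, then 304 and 250, and 311 and 239, and in EGR1OV against H/R 1670 and 971, then 1330 and 1235, and 1112 and 1506. The cause was not tested.

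Equal replicate numbers did not pair the libraries, since same-number correlations ran from -0.20 to 0.26, and with the replicate block 10, 1 and 10 of the 10 genes were called in the 3 comparisons and 2309, 516 and 2654 of all genes. Both ratios kept their direction in the 7 alternatives run for each comparison of them. Depth limits Psmb9 and Nlrc5 in Sham and H/R, which rest on 9 to 29 reads, and 3 against 3 libraries limit the exact tests to 0.1.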

Other observations

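Among ratios between neighboring or related members, Psmb9 was at 0.0530 times Tap1, its neighbor across the shared promoter, on average in Sham, at 0.0781 times in H/R and at 0.189 times in EGR1OV. H2-K1 was at 0.924 times H2-D1 in Sham, at 1.00 times in H/R and at 1.05 times in EGR1OV. Hfe, a class I-like regulator of iron uptake, averaged 1.27 FPKM in Sham and 3.30 FPKM in EGR1OV, and Cd1d1, which presents lipids, 3.76 and 5.56 FPKM, both called higher and named after their values were seen.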
